A study of Homo sapiens with 6 samples.

Results

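Tetraspanins are small membrane proteins that cross the lipid bilayer several times and carry a large outer loop held together by conserved cysteines. They bind one another and other membrane proteins, among them integrins, proteases and growth factor precursors, and gather them in patches of membrane, where they affect adhesion, shedding of surface proteins and the loading of vesicles. In the ovary they are best known from the egg, since CD9 on the oocyte is needed for fusion with the sperm. The 33 human genes of the family described here are TSPAN1 to TSPAN19, TSPAN31 to TSPAN33, CD9, CD37, CD53, CD63, CD81, CD82, CD151, the uroplakins UPK1A and UPK1B, and PRPH2 and ROM1 of photoreceptors. They were chosen by family, out of 60671 genes measured, after TSPAN2 had been selected on its change in these same libraries. The change of TSPAN2 is therefore given as a description with no test, and the other members are read from a fit over all genes.

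The samples were KGN cells, a human granulosa cell line, edited by CRISPR to hold 2 wild-type alleles of FOXL2 (FOXL2 WT/WT in every library). Control siRNA libraries received 30 pmol of a scrambled siRNA and FOXL2 siRNA libraries the same amount of siRNAs against FOXL2, a forkhead transcription factor of granulosa cells, with RNA taken 30 h later and 3 libraries per group. Each FOXL2 siRNA library had its own pool of 3 out of 4 siRNAs, with 1 siRNA in every pool, so these libraries repeat the depletion but not the mixture. All libraries come from 1 edited line, and nothing in the labels says whether the cultures were independent. The p-values therefore measure the spread between these libraries, which may be technical. With the FOXL2 siRNA this spread also holds any difference between the siRNA pools.

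FOXL2 itself had 248, 238 and 290 counts with the control siRNA and 72, 80 and 68 with the FOXL2 siRNA. All 3 knock-down libraries were under all 3 controls, at 26.0%, 32.6% and 23.3% of the control mean in CPM (counts scaled to library size after TMM normalization). Libraries held from 23843192 to 28791954 counts, and FOXL2 siRNA replicate 2 stood apart on the first principal component (31.2% of the variance), with a score of 40.9 while the other libraries lay between -17.2 and -0.025. Of 13 granulosa markers 7 were measured well enough to test, among them NR5A1 and FST, while the FSH receptor FSHR and WT1 were at 0 in every library, so the cells show only part of the granulosa profile. With bulk RNA, fewer cells that express a gene and less RNA per cell cannot be told apart.

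TSPAN2 (ENSG00000134198) lies on chromosome 1 at chr1:115048011-115089500, minus strand, in GRCh38 with the GENCODE v29 annotation. Its protein is known from oligodendrocytes, which make myelin, and from vascular smooth muscle. The 250 bases before its RefSeq start (chr1:115089504-115089753, minus strand, GRCh38.p14) are shown because they precede the member whose change led to this family. They were searched for the forkhead core, TGTTTAC or TAAACA on either strand (TAAACA read on the other strand is TGTTTA, which lies within TGTTTAC). The corresponding stretches of CD53 (chr1:110870960-110871209, plus strand) and TSPAN8 (chr12:71158000-71158249, minus strand) stand beside it, since these were the members with such a match, which is set in capitals. All run 5′ to 3′ and are taken from RefSeq.
TSPAN2: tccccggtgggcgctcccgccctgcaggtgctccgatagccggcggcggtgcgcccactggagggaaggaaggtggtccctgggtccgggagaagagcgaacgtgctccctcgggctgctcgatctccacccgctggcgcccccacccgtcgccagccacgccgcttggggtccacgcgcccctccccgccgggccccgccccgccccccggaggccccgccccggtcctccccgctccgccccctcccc
CD53: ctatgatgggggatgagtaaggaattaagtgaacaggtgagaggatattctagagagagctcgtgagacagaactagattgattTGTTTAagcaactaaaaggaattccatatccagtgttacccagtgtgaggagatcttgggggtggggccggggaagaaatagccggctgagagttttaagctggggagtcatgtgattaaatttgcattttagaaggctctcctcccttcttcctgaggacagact
TSPAN8: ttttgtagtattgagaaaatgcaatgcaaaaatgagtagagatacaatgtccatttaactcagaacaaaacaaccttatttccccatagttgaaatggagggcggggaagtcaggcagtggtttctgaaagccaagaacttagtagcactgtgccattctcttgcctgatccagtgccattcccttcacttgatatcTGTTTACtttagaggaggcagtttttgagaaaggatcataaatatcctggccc
The TSPAN2 stretch is rich in G and C (79.2%, against a median of 59.6% over the members and 58% over all genes) and holds no match. The match of CD53 starts at -166 and that of TSPAN8 at -53 relative to the start. In the window from 250 bases before to 50 after the start, 2 of the 25 members with a sequence had the core (8%), and so did 12.4% of 27305 promoters. Neither CD53, a leukocyte tetraspanin, nor TSPAN8, a tetraspanin of epithelia and their tumors, had more than 1 count in any library.

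The family was present mainly through a few abundant members, and their order was stable within the control libraries. In TPM (transcript abundance scaled to library and transcript length), CD63 stood first with 1247 ± 58.2 (SD, n = 3) with the control siRNA. CD63 is the tetraspanin of late endosomes, lysosomes and exosomes. CD151, the partner of laminin-binding integrins, followed with 842 ± 32.5, and CD81, part of the B cell coreceptor and a partner of CD9, with 313 ± 30.0. CD82, known as a metastasis suppressor, had 239 ± 17.6, TSPAN3 203 ± 3.38, and TSPAN4, which is needed for migrasomes, 175 ± 6.40 TPM. No control ranges of neighbours in this order overlapped down to TSPAN31 at rank 11. Further down, neighbours overlapped from TSPAN10 through TSPAN9 and TSPAN6 to ROM1, and again from TSPAN12 through TSPAN1, TSPAN15 and TSPAN13 to TSPAN2, while ROM1 did not overlap TSPAN12. TSPAN2 was at rank 20 of the family, with 1.54 ± 0.464 TPM, above TSPAN33 (0.740 ± 0.147) and TSPAN18.

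**Figure D1:**
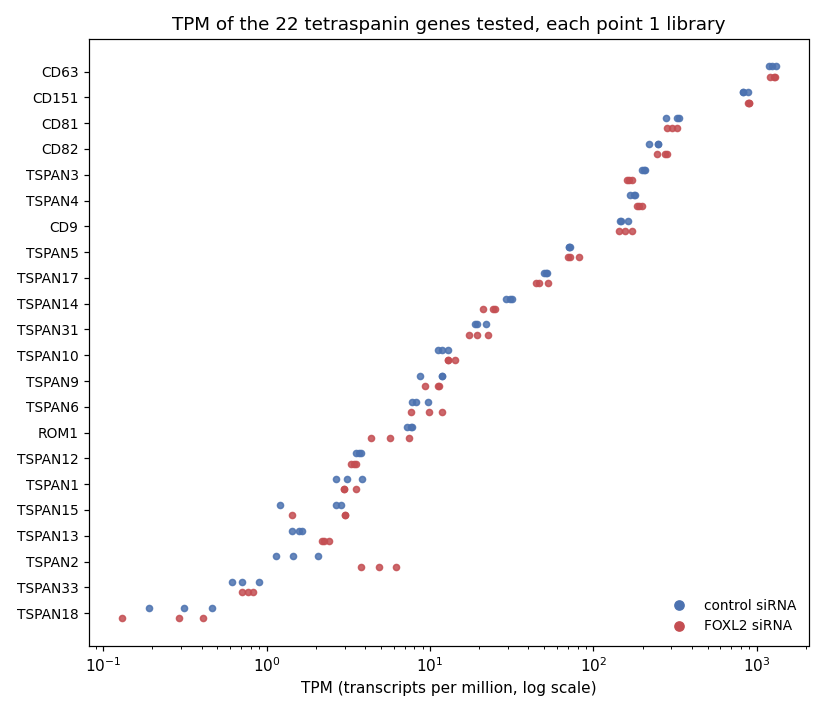
TPM on a log scale for the 22 tetraspanin genes tested, with 1 point per library, control siRNA above and FOXL2 siRNA below on each line, and genes ordered by their control mean. CD63 and CD151 lie highest in all 6 libraries, and the 3 FOXL2 siRNA points of TSPAN2, from 3.76 to 6.17, lie apart from its control points, from 1.14 to 2.05.

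The sum of the family was 3397 ± 92.6 TPM with the control siRNA and 3465 ± 86.5 with the FOXL2 siRNA (two-sided exact permutation test, p = 0.5, where 3 against 3 cannot give less than 0.1). CD63 alone made up from 35.9% to 37.5% of it and CD151 from 24.1% to 26.5%. The 6 most abundant members held from 88.6% to 89.4%. TSPAN2 took from 0.0335% to 0.0588% of the family's TPM in control libraries and from 0.111% to 0.174% in knock-down libraries.

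In all, 22 members passed edgeR's filter on low counts and were tested among 15663 genes. The 11 others are known mostly from other cell types, and none exceeded 5 counts or 0.99 TPM in any library. CD37 and CD53 belong to leukocytes, TSPAN32 to blood cells, UPK1A and UPK1B to the urothelium and PRPH2 to photoreceptor discs. TSPAN7, TSPAN8 and TSPAN11 had at most 2 counts in any library. TSPAN16 and TSPAN19 had 0 counts in all 6 libraries, which allows up to 3 counts per library, or from 0.104 to 0.126 CPM (counting error only). Markers of the same cell types were at 0 or low, though some passed the filter on low counts. The 5 urothelial markers summed to between 0.15 and 0.86 TPM in any library with KRT5, KRT20 and UPK3A at 0, and the 5 photoreceptor markers to between 0.24 and 0.83 TPM with RCVRN at 0. GATA3 and NRL of these lists passed the filter, with means of 0.397 and 0.557 TPM with the control siRNA. The 7 leukocyte markers summed to between 6.36 and 6.61 TPM with the control siRNA and between 4.19 and 5.56 with the FOXL2 siRNA. CD3E was at 0, while LCP1, CORO1A and PTPRC passed the filter, with means of 3.31, 2.05 and 0.817 TPM with the control siRNA. These leukocyte ranges did not overlap, and their part in any result on the family was not tested.

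TSPAN2 was the one member with a large difference. Counts were 36, 38 and 38 with the control siRNA, against 131, 164 and 161 with the FOXL2 siRNA. In CPM these were 1.43, 1.55 and 1.42 against 4.79, 6.78 and 5.59, or 1.47 ± 0.0724 and 5.72 ± 0.998 (SD, n = 3). Every knock-down library was above every control library, and the 3 knock-down libraries differed more among themselves than the controls did. That wider spread was not particular to TSPAN2. Over the genes tested, the chi-square per gene was from 9.77 to 25.1 between knock-down libraries and from 2.28 to 7.31 between controls. The log2 fold change was 1.96 (SE 0.18), a 3.88-fold difference. A larger one was found in 8 genes tested, none with an edgeR adjusted p below 0.05. Among the genes other than TSPAN2 inside that threshold, the largest log2 fold change was 0.93. Without FOXL2 siRNA replicate 2, the library that stood apart, that of TSPAN2 was 1.82.

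The size of the TSPAN2 difference depended on how transcript length was treated. GENCODE v29 lists 4 TSPAN2 transcripts, of 464, 671, 793 and 3177 nucleotides, and RSEM estimates an effective length of the gene in each library from the transcripts it assigns reads to. That length was 1877, 1607 and 1004 nucleotides with the control siRNA, against 1446, 2844 and 1342 with the FOXL2 siRNA. The 2 groups overlapped, and FOXL2 siRNA replicate 2, which had the highest CPM, had the longest estimate. Its TPM was the lowest of the knock-down group, with 4.85, 3.76 and 6.17 TPM in replicates 1, 2 and 3. The control libraries had 1.14, 1.44 and 2.05 TPM. The groups stayed apart in TPM, with a ratio of means of 3.19 against 3.90 in CPM. Offsets taken from these lengths gave a log2 fold change of 1.70 in edgeR and of 1.69 in DESeq2.

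**Figure D2:**
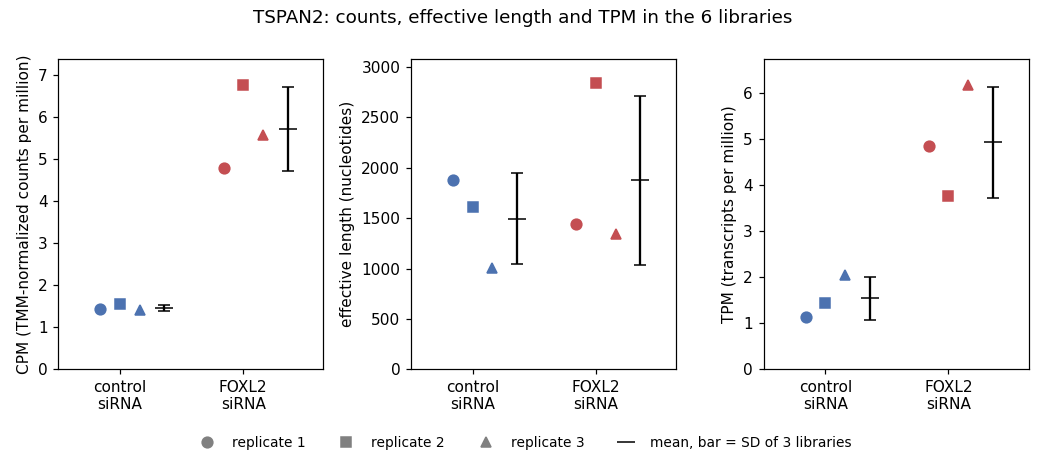
TSPAN2 in each library, in CPM (left), RSEM effective length in nucleotides (middle) and TPM (right), with the replicate number as the symbol and the mean with the SD of 3 libraries beside the points. The knock-down libraries lie above the controls in CPM and TPM, while the effective lengths of the groups overlap and FOXL2 siRNA replicate 2 has the longest, 2844 nucleotides.

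No member's effective length passed a test between the groups. With limma on log2 effective length, 0 of the 22 members had an adjusted p below 0.05, against 0% of the 15662 genes with a length test. At an unadjusted p below 0.05 there were 0 members too, against 5.45% of those genes. The shift of TSPAN2 was 0.29 on the log2 scale (SE 0.404).

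Most of the other members moved little. At an adjusted p below 0.05, edgeR called 0 of the 21 members other than TSPAN2, against 0.262% of all genes tested (0.109% higher and 0.153% lower). TSPAN2, chosen on this contrast, lies inside that threshold, and nothing is read from it. The largest adjusted p inside the threshold was 0.0494 and the smallest outside was 0.0508, over all genes, and the nearest member outside was TSPAN3 at 0.121. At an unadjusted p below 0.05, CD82 was the 1 other member higher, against 6.67% of all genes, and 3 were lower, TSPAN3, TSPAN14 and ROM1, against 6.78%. DESeq2, which gave an adjusted p to 17 members with TSPAN2 among them, called none of the others higher and 2 lower, TSPAN3 and TSPAN14, against 1.19% and 1.69% of its genes. Both shares of members that were lower are above those over all genes, but they rest on 3 and 2 genes and were not tested. Of the 22 members, 10 had a positive and 12 a negative log2 fold change, with a median of -0.01, and 13 were under 0.15 in size. The median size was 0.0969, or 0.0956 with TSPAN2 left out, against 0.120 over all genes tested, whose median log2 fold change was 0.0055.

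**Figure D3:**
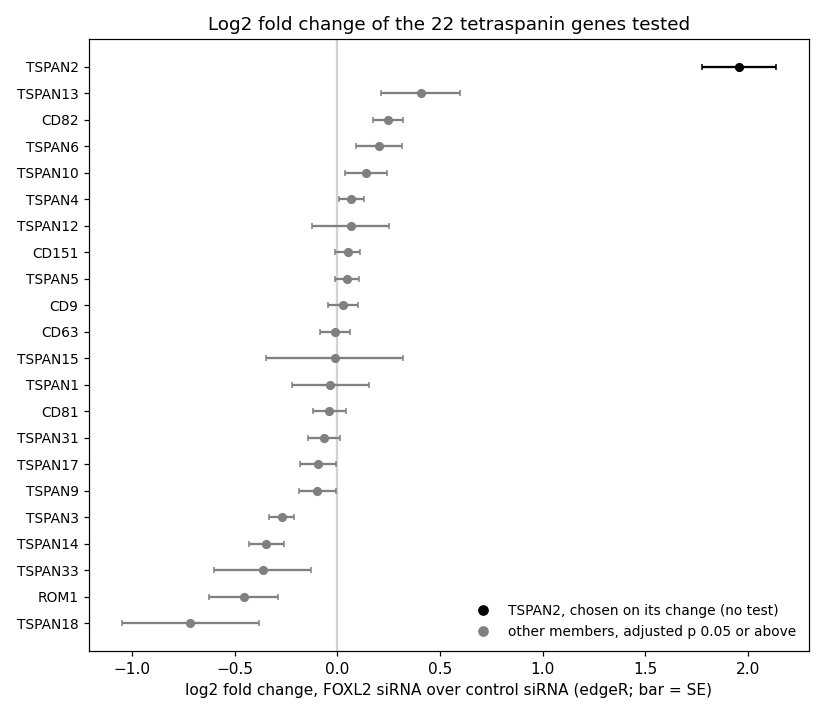
Log2 fold change (FOXL2 siRNA over control siRNA, edgeR) of the 22 tetraspanin genes tested, with the SE as bars, TSPAN2, chosen on its change, in black and the others, none with an adjusted p below 0.05, in grey. TSPAN2 lies at 1.96 and the others between -0.72 for TSPAN18 and 0.41 for TSPAN13.

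Among the 6 abundant members, the vesicle tetraspanin CD63 had 631, 603 and 680 CPM with the control siRNA and 662, 583 and 654 with the FOXL2 siRNA. Its groups overlapped, with a log2 fold change of -0.01 (SE 0.072, edgeR adjusted p = 0.970). CD151 had 703, 698 and 767 CPM against 754, 723 and 770, and also overlapped (log2 fold change 0.05, SE 0.061, edgeR adjusted p = 0.750). CD81 gave 259, 251 and 236 CPM against 242, 217 and 267 (log2 fold change -0.04, SE 0.082, edgeR adjusted p = 0.877). TSPAN4 gave 131, 125 and 136 CPM against 137, 131 and 143 (log2 fold change 0.07, SE 0.062, edgeR adjusted p = 0.663), with overlapping groups in CPM though not in TPM. For these 4 genes the difference was within about 1 SE of 0. CD82 was different in that its groups did not overlap. It had 196, 173 and 201 CPM with the control siRNA and 229, 216 and 234 with the FOXL2 siRNA. Its log2 fold change of 0.25 (SE 0.073) did not pass the test in edgeR (adjusted p = 0.211) or in DESeq2 (adjusted p = 0.0878), and its groups overlapped in TPM.

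TSPAN3, found in a complex with claudin-11 in myelinating cells, and TSPAN14 were the members nearest to a call in the lower direction. TSPAN3 (chr15:77041404-77083984, minus strand) had 168, 165 and 158 CPM with the control siRNA and 139, 139 and 129 with the FOXL2 siRNA. Every knock-down library was under every control library, and the same held in TPM, with 206, 199 and 203 against 164, 162 and 173. The log2 fold change was -0.27 (SE 0.060), with an adjusted p of 0.121 in edgeR and 0.0127 in DESeq2. It kept its sign in 17 of 17 alternatives and passed in 5 of them, one of which left out FOXL2 siRNA replicate 2 (edgeR adjusted p = 0.0363), over a range from 0.00586 to 0.508.

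TSPAN14 (chr10:80454166-80533123, plus strand) belongs to the TspanC8 tetraspanins, which escort the protease ADAM10 to the cell surface. It had 50.7, 49.95 and 49.2 CPM with the control siRNA and 41.8, 34.5 and 41.5 with the FOXL2 siRNA. The groups did not overlap in CPM or in TPM, and FOXL2 siRNA replicate 2 was the lowest. The log2 fold change of -0.35 (SE 0.085) had an adjusted p of 0.149 in edgeR and 0.0305 in DESeq2, with 3 of 17 alternatives past the threshold and a range from 0.0160 to 0.520. Without FOXL2 siRNA replicate 2 the log2 fold change was -0.27. Exons of TSPAN3 and TSPAN14 overlap genes on the opposite strand (AC090181.1 and AC021028.1). The library kit keeps the strand, but whether the counting used it is not given in the sources used here.

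**Figure D4:**
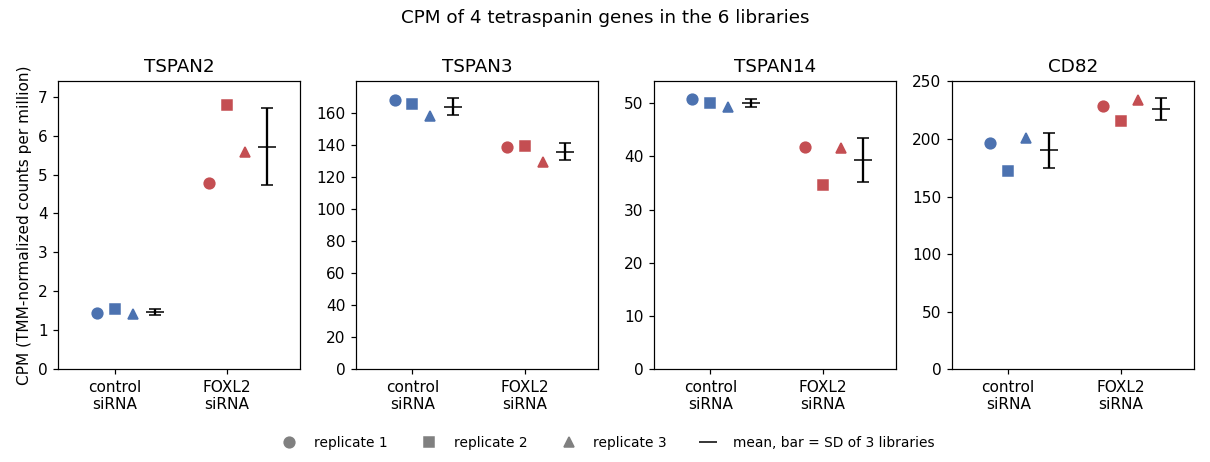
CPM of TSPAN2, TSPAN3, TSPAN14 and CD82 in each library, each axis starting at 0, with the replicate number as the symbol and the mean with the SD of 3 libraries beside the points. The groups do not overlap in any of the 4 panels, and FOXL2 siRNA replicate 2 is the highest knock-down library for TSPAN2 and the lowest for TSPAN14.

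Counted over the family, the CPM of the groups did not overlap for 3 members that were higher (TSPAN2, TSPAN13 and CD82, or 13.6% of those tested) and 4 that were lower (TSPAN3, TSPAN14, ROM1 and TSPAN33, or 18.2%). Over all genes tested the shares were 9.97% and 10.6%. The 13.6% includes TSPAN2, chosen on this contrast, so only TSPAN13 and CD82 can be set beside the 9.97%. In TPM the groups did not overlap for TSPAN2, TSPAN13 and TSPAN4, which were higher, and for TSPAN3 and TSPAN14, which were lower. The share over all genes was not taken in TPM, so this is a list with no comparison. TSPAN13 had 1.63, 1.80 and 1.94 CPM against 2.53, 2.60 and 2.01, with a log2 fold change of 0.41 (SE 0.192, edgeR adjusted p = 0.394). It stayed apart on both scales, at a level near that of TSPAN2 in the controls. ROM1, a photoreceptor disc protein, had 3.59, 3.92 and 3.47 CPM against 2.38, 2.44 and 3.16 (log2 fold change -0.46, SE 0.168, edgeR adjusted p = 0.302). However, its counts were not whole in any library and its exons overlap EML3 on the opposite strand. CD151 and TSPAN31 also had no whole counts and overlap other genes on the opposite strand. In all, exons of 17 members overlap another gene. TSPAN18, the lowest of the family in log2 fold change, rested on from 8 to 22 counts.

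The 6 TspanC8 members split without a common direction. TSPAN5, the most abundant of them with 71.4 ± 0.587 TPM, had a log2 fold change of 0.05, TSPAN10 of 0.14, TSPAN15 of -0.01 and TSPAN17 of -0.10. TSPAN14 and TSPAN33 were at -0.35 and -0.36. With effective-length offsets in edgeR, TSPAN14 was at -0.39, while TSPAN33 turned to 0.05 and TSPAN15 to 0.15. The mean TPM of TSPAN33 was 0.740 with the control siRNA and 0.767 with the FOXL2 siRNA. The TspanC8 client ADAM10 had a log2 fold change of 0.10 (SE 0.103, edgeR adjusted p = 0.720). The list of clients and related genes held 6 genes, 2 with a positive and 4 with a negative log2 fold change. The largest change in it was that of ADAM17, a sheddase related to ADAM10, at -0.28 (SE 0.074, edgeR adjusted p = 0.170). ADAM17 had 46.7, 44.2 and 42.8 CPM against 38.1, 34.2 and 37.8, and its groups did not overlap in CPM, though they did in TPM. Those of NOTCH1 overlapped in neither (log2 fold change -0.19, SE 0.062, edgeR adjusted p = 0.256). Over all genes tested, 10.6% were lower with no overlap in CPM.

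Known partners of the tetraspanins outside the family were mostly level. Of 47 genes in 6 lists, 44 were tested, 20 with a positive and 24 with a negative log2 fold change, and the median size was 0.0863. EdgeR called 1 of them, HBEGF, the heparin-binding ligand of the EGF receptor and a partner of CD9, which rose with the FOXL2 siRNA. Over all genes tested the share called was 0.262%. The lists were chosen with earlier results of these data known, so this call describes these libraries and is no independent test. HBEGF had 12.4, 12.2 and 14.7 CPM in the control libraries and 23.0, 22.1 and 24.9 in the knock-down libraries, with no overlap (log2 fold change 0.83, SE 0.097, edgeR adjusted p = 0.0197). Without FOXL2 siRNA replicate 3, or without any 1 of the control libraries, 0 partner genes were called, and without FOXL2 siRNA replicate 2 there were 4, among 534 genes called in all. Its partner in this family, CD9, had 104, 102 and 116 CPM against 103, 114 and 112, with a log2 fold change of 0.03 (SE 0.074, edgeR adjusted p = 0.900). The largest differences in the other lists did not pass the test: integrin ITGB4 at 0.29 (edgeR adjusted p = 0.649), the immunoglobulin protein PTGFRN at -0.27 (0.491), the palmitoyl transferase ZDHHC2 at 0.29 (0.408) and syntenin SDCBP of exosome formation at 0.25 (0.382). Integrins ITGA3 and ITGB1, with which CD151 associates, had log2 fold changes of 0.04 and -0.05.

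The L6 proteins have the same membrane topology but form a separate family. Of 6 L6 genes 2 were tested. TM4SF18 had 0.239, 0.286 and 0.336 CPM with the control siRNA and 0.403, 1.45 and 0.416 with the FOXL2 siRNA, with FOXL2 siRNA replicate 2 far above the rest and a log2 fold change of 1.35 (SE 0.566, edgeR adjusted p = 0.353). TM4SF1 was at 0.16 (SE 0.062, edgeR adjusted p = 0.319).

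TSPAN2 was also set beside its neighbours on the chromosome and beside markers of the cell types it is known from. Of 20 genes of the tables within 500 kb of its start, 5 others were tested, and edgeR called 0 of them (1, NRAS, at an unadjusted p below 0.05, and 0 by DESeq2). Over all genes tested, edgeR called 0.262%, and 6.67% were higher and 6.78% lower at an unadjusted p below 0.05, which also applies to the markers here. The log2 fold changes were -0.38 for DENND2C, 0.20 for NRAS and 0.16 for SIKE1. The 7 oligodendrocyte markers summed to between 0.64 and 1.21 TPM in control and between 0.62 and 0.72 in knock-down libraries, with MOG, MAG and OLIG1 at 0. Of 11 smooth muscle markers 8 were tested. EdgeR called 0 of these (1, ACTA2, at an unadjusted p below 0.05, and the same gene by DESeq2, adjusted p = 0.0346), and MYOCD, which drives smooth muscle genes, was at 0 in every library. ACTA2, the smooth muscle actin, had a log2 fold change of 0.44 (SE 0.136, edgeR adjusted p = 0.237). The summed level of that list overlapped between the groups, from 2488 to 2779 TPM and from 2673 to 2888 TPM.

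The study asked whether the forkhead domain binds RNA rich in G doublets. A motif of this kind, defined as 8 G doublets separated by 1 to 4 nucleotides each, was searched for in the longest GENCODE v29 transcript of each gene. This definition is broader than the paper's consensus, which allows 4 nucleotides only in the first gap and sets an A in some others. The paper compared its knock-down genes with transcripts thought to form G-quadruplexes, a fold of G-rich RNA, in vitro. That list was not used here. The motif of 8 G doublets defined above was present in 8 of the 22 members tested (36.4%) and in 19.3% of 15530 genes tested. Those members were TSPAN9, TSPAN12, TSPAN17, TSPAN18, TSPAN33, CD81, CD82 and ROM1. Neither TSPAN2 nor TSPAN3 or TSPAN14 had it, in transcripts of 3177, 6467 and 16183 nucleotides. The longest transcript need not be the one these cells express. For CD81 it has 5235 nucleotides, against effective lengths from 1143 to 1225, and for TSPAN17 4445, against 2097 to 2200. The transcripts searched for TSPAN3 and TSPAN14 were also far longer than their effective lengths. A match or its absence describes these letters only, and binding of FOXL2 was not measured in these libraries.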

How the data were processed

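RNA was sequenced from CRISPR-edited KGN cells, 3 libraries with FOXL2 siRNA and 3 with control siRNA, grouped by the siRNA in the labels. The authors processed stranded mRNA reads with STAR 2.7.6a, Picard 2.8.1 and RSEM 1.3.1, per the submitters' processing notes, which also list R 3.6.3, DESeq2 1.26.0 and the build GRCm38, a mouse build, although all gene identifiers are human. The annotation release is not given in the sources used here. The deposited tables hold, for each of 60671 genes, RSEM's expected count (an estimated count, not normalized), TPM scaled by the authors' RSEM run to library and transcript length, FPKM (deposited, not used) and effective lengths estimated in each library.

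Expected counts were rounded, filtered with filterByExpr (15663 genes), normalized by TMM and compared with the quasi-likelihood test of edgeR 4.0.16 in R 4.3.3, with Benjamini-Hochberg adjustment over all genes tested and a threshold of 0.05. Effective lengths were compared on the log2 scale with limma 3.58.1. Alternatives were DESeq2 1.42.0, limma-voom, limma on log2(TPM + 1) and log2(TPM + 0.1) for a mean TPM of at least 1, DESeq2 size factors in edgeR, no filter, a mean of at least 50 counts, effective lengths as offsets, the replicate number as a block, and each library left out in turn. Single sums were compared with an exact permutation test. The fits were tested on simulated data.

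Members, partner and marker lists were chosen with earlier results of these data known. Full statistics went to TSPAN2, to members called by edgeR or DESeq2 and to the 6 most abundant, and in each partner list to calls and to the gene with the largest difference, and other members were named afterwards where a count of 5 or fewer held them. Gene names were looked up for each identifier (60401 of 60671 matched), gene coordinates and transcripts came from GENCODE v29 (GRCh38), and promoter sequences from RefSeq (GRCh38.p14), where 25 of 33 members matched. Values of some neighbouring and marker genes are not reported here. Python 3.11.15 was used for tables and figures, with matplotlib 3.10.9, pandas 2.3.3, scipy 1.17.1 and numpy 2.4.6.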

Additional observations from a re-analysis of the deposited data

How the results depend on the processing

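EdgeR called 1 tetraspanin gene, 1 higher and 0 lower. That gene was TSPAN2, chosen on this contrast, so these counts are a description. DESeq2, edgeR with no filter on low counts and DESeq2 with effective-length offsets each called 3, of which 2 were lower (TSPAN3 and TSPAN14). Limma on log2(TPM + 1), limma on log2(TPM + 0.1) and edgeR with effective-length offsets called 0 in all and 0 higher, while 5, 5 and 4 members had an unadjusted p below 0.05. With each library left out in turn, from 0 to 2 members were called, from 0 to 1 higher and from 0 to 1 lower. The count was 0 without FOXL2 siRNA replicate 3 and without each of control siRNA replicates 1, 2 and 3, and the cause was not tested. In those fits from 0 to 4 genes were called in all, against 41 with every library, 348 by DESeq2 and 534 without FOXL2 siRNA replicate 2. The log2 fold change of TSPAN2 lay between 1.22 and 2.07 over 16 alternatives, and its sign was the same in each. The 1.22 came from limma on log2(TPM + 1), where the 1 added shrinks a change from a control mean of 1.54 TPM. With log2(TPM + 0.1) it was 1.62. Over 17 alternatives, none of the 19 members other than TSPAN2, TSPAN3 and TSPAN14 was called in any in which it was tested. The median log2 fold change of the members was -0.068 without FOXL2 siRNA replicate 3 and ranged from -0.068 to 0.034 when single libraries were left out. Of the partner genes, 1 was called, 2 with no filter and with effective-length offsets in DESeq2, and from 0 to 4 with each library left out.

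The labels number the libraries 1 to 3 in both groups. Same-numbered libraries deviated from their group means with correlations of -0.030, 0.047 and 0.048, and not every library correlated best with its own number, so the numbers were not taken as pairs. With the replicate number as a block, edgeR called 1 member and 11 genes in all, and DESeq2 called 189 genes and 1 member, TSPAN3 (0 higher and 1 lower), giving TSPAN2 no adjusted p.

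The SE of the log2 fold change was largest in TSPAN18 (0.333, from 8 to 22 counts), TSPAN15 (0.332, from 34 to 81 counts) and TSPAN33 (0.237, from 21 to 30 counts). Calls over all genes also differed by more than 1.5 times with no filter (737), DESeq2 with effective-length offsets (346), a mean of at least 50 counts (67) and limma on TPM (13).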
